A study of Mus musculus with 35 samples.

Results

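The 8 genes described here encode carriers that move amino acids across the surface membrane of T cells. They were taken as a fixed list: Slc7a5, Slc3a2, Slc1a5, Slc1a4, Slc7a1, Slc7a6, Slc38a1 and Slc38a2. The list was chosen with earlier results of these data known, so its counts beside shares of all genes are descriptive. The members are 8 of the 48709 genes in the count tables. All 8 passed the filter on low counts and were among the 13819 genes tested. RNA was sequenced from OT-I CTLs, cytotoxic CD8+ T cells of mice that carry 1 transgenic T-cell receptor specific for ovalbumin. The splenic CD8+ T cells had been primed with antibodies to CD3 and CD28 and expanded in IL-2 before the experiment, so every group, the start of the culture included, had already seen IL-2. There were 7 groups of 5 biological replicates, 35 libraries in all. One group was taken at 0 h, and the others after 24 h in medium at pH 7.4, pH 7 or pH 6.6, either without added IL-2 or with IL-2 at 200 IU/mL. The question was how acidity changes the carriers in CTLs that are, or are not, stimulated by IL-2. The age of these mice, and whether mice were pooled, are not given in the sources used here.

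Amino acids do not cross the membrane by themselves, and an activated T cell that grows and divides needs a steady supply of them for protein and nucleotide synthesis. Slc7a5 (LAT1) is a light chain that exchanges large neutral amino acids such as leucine, and it reaches the cell surface only when it is joined to the heavy chain Slc3a2 (CD98, 4F2hc). Slc7a6 (y+LAT2) is another light chain of the same heavy chain and exchanges cationic for neutral amino acids. Slc1a5 (ASCT2) and Slc1a4 (ASCT1) exchange small neutral amino acids, Slc7a1 (CAT1) takes up arginine and lysine on its own, and Slc38a1 (SNAT1) and Slc38a2 (SNAT2) import neutral amino acids such as glutamine together with sodium. IL-2 is known to raise carriers of this kind in CTLs through mTORC1 and c-Myc, and ATF4, a factor of the amino acid shortage response, has targets among them.

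The positions are those of GENCODE M21 on GRCm38. Slc7a5 is at chr8:121881150-121907694 on the minus strand and Slc3a2 at chr19:8706882-8723369, also on the minus strand. Slc1a5 is at chr7:16781340-16798274 on the plus strand, Slc1a4 at chr11:20302180-20332713 on the minus strand, Slc7a1 at chr5:148327410-148399904 on the minus strand and Slc7a6 at chr8:106168857-106198706 on the plus strand. The sodium-coupled pair are neighbours on chromosome 15 and share the minus strand, with Slc38a1 at chr15:96571418-96642913 and Slc38a2 at chr15:96687392-96699730. No exon of a member overlapped an exon of another gene on either strand. Reads of 50 bases would be unique to the gene in all windows for 5 members, in 99.85% for Slc7a1, in 96.49% for Slc3a2 and in 95.77% for Slc38a1, so counts of the last of these may miss reads shared with other genes.

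RefSeq promoter windows (GRCm38.p6) were given for Slc3a2, Slc38a2, Slc1a4, Slc7a1 and Slc7a6, and they were cut to 250 bases before and 20 bases after the transcript's start. Those of Slc3a2 and Slc38a2 are shown because these members were higher at pH 6.6 without IL-2, and that of Slc1a4 because it had the largest fall of the members at pH 6.6 with IL-2. Capitals mark a match to TGATGNAA on either strand, the core of the amino acid response element that ATF4 dimers bind. The windows read 5′ to 3′ on the minus strand.
Slc3a2, chr19:8713878-8714147: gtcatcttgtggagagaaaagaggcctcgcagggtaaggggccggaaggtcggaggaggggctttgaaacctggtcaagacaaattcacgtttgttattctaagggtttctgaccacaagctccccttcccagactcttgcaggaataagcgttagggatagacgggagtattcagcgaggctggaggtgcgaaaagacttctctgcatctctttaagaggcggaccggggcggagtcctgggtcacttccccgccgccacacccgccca
Slc38a2, chr15:96699709-96699978: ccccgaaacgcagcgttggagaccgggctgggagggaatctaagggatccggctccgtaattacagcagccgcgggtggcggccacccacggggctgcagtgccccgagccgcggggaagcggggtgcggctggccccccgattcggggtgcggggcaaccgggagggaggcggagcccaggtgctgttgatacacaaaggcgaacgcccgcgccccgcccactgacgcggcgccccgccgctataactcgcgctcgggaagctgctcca
Slc1a4, chr11:20332694-20332963: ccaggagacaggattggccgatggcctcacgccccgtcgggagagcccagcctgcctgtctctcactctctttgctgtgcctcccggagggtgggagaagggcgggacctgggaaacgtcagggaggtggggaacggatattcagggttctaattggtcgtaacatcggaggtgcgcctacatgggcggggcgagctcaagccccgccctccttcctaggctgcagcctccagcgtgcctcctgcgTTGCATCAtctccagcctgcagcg
The match in Slc1a4 spans the start of the transcript. Windows of the same length held TGATGNAA in 3.69% of 32851 promoters. Another pair of motifs was searched for, the E-box CACGTG that c-Myc dimers bind, present in 6.57% of all windows, and TTCNNNGAA, the form that STAT5 binds, present in 7.58%. No window of these 5 members held CACGTG, and 1 of the windows of Slc7a1 held TTCNNNGAA. Slc7a5, Slc1a5 and Slc38a1 had no window and were not searched. At these shares of all windows, so few members can lack a match by chance. That window, chr5:148392796-148393065, lies inside the span of the gene given above. The Slc7a1 window at the outer end of that span, chr5:148399885-148400154, held no match. The Slc3a2 window also lies inside its gene's span and not at the outer end. The motifs do not overlap in these windows, and a match describes letters, not binding. Bases outside these windows were not searched, so a window without a match does not show that the gene lacks the motif.

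Library totals on genes were 16721319 to 34033340 reads, with a median of 24730020. All 10 markers of CD8+ T cells and cytotoxicity were detected, and Cd8a ranged from 624 to 1575 CPM. In this paragraph CPM are read counts relative to the library's total on genes, and in later paragraphs they are also scaled by the TMM method. Of the markers of other cells, Ms4a1 and Pax5 of B cells and C1qa of myeloid cells were at 0 in every library, and the summed level was 1.06 to 6.21 CPM for 5 B-cell markers and 0.351 to 4.23 CPM for 6 myeloid markers. The CD4+ T-cell list of 4 genes summed to 16.7 to 63.4 CPM, most of it Zbtb7b (15.3 to 60.0 CPM), while Cd4 itself was at most 2.57 CPM. The dendritic cell list (1.57 to 30.7 CPM) was mostly Itgax and the NK cell list (7.70 to 94.6 CPM) mostly Klrb1c, both of which activated CD8+ T cells can express. The summed CD8+ T-cell list moved with the groups, with medians of 15338 CPM at 0 h, 13048 at pH 7.4 with IL-2, 9327 at pH 6.6 with IL-2, 8064 at pH 7.4 without IL-2 and 8161 at pH 6.6 without IL-2. Of its genes Gzmb had the widest range, from 39.4 to 8872 CPM. The part of these levels in the results was not tested. In bulk RNA, fewer cells of a kind and less RNA per cell cannot be told apart.

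With IL-2, acid separated the members. At pH 6.6 against pH 7.4, Slc1a4, Slc7a5, Slc7a1, Slc7a6, Slc1a5 and Slc38a1 were lower, Slc38a2 was higher and Slc3a2 did not pass the test (edgeR quasi-likelihood test, Benjamini-Hochberg adjusted over all genes tested, threshold 0.05). Thus 6 of 8 members were lower, where 40.9% of all genes tested were lower, and 1 was higher, where 35.4% of all genes were. The median log2 fold change was -1.13 over the members and -0.07 over all genes tested. At pH 6.6 the mean level of Slc1a4 was 10.99% of that at pH 7.4, that of Slc7a5 12.1%, Slc7a1 20.2%, Slc7a6 40.5%, Slc1a5 51.7% and Slc38a1 70.7%, against 103% for Slc3a2 and 149.9% for Slc38a2. Groups did not overlap for the 7 members that passed, and neither did they for 59.2% of all genes tested. The share of reads on no gene also differed between these groups, at 3.91% to 5.18% of a file's counts at pH 7.4 and 7.34% to 8.83% at pH 6.6, and its part in the results was not tested.

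Without IL-2, the same step in pH gave another picture. Slc3a2 and Slc38a2 were higher at pH 6.6 and Slc1a5 and Slc7a6 lower, while Slc7a5, Slc1a4, Slc7a1 and Slc38a1 did not pass. The counts were 2 of 8 higher, beside 31.6% of all genes, and 2 of 8 lower, beside 35.4% of all genes, which are near those shares. The median over the members was 0.20 on the log2 scale, and over all genes tested -0.03. At pH 6.6 the mean level of Slc3a2 was 311% of that at pH 7.4 and that of Slc38a2 185%, while Slc7a6 stood at 58.1% and Slc1a5 at 70.1%.

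**Figure D1:**
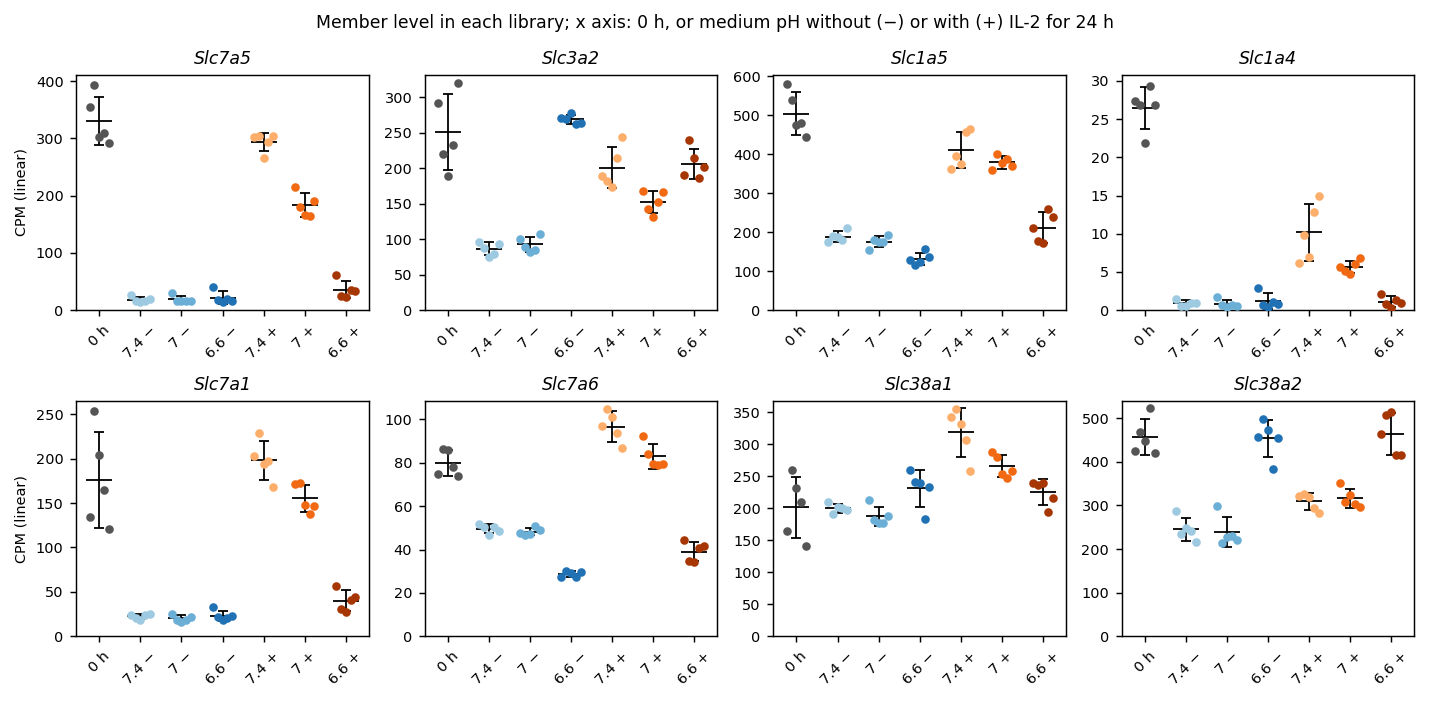
Level of each member in CPM (linear axis from 0) in the 35 libraries, by group: 0 h, then pH 7.4, 7 and 6.6 without IL-2 (−) and with IL-2 (+). Points are libraries in the order of replicate number, and bars are the mean ± SD of 5; with IL-2 Slc7a5 fell from 294 CPM at pH 7.4 to 35.5 CPM at pH 6.6, while Slc3a2 stood at 201 and 207 CPM.

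Slc7a5, the leucine exchanger's light chain, was the member that IL-2 changed most at pH 7.4 and at pH 7. At pH 7.4 with IL-2 its level was 302, 304, 266, 295 and 304 CPM in replicates 1 to 5, and at pH 7 it was 216, 181, 167, 164 and 189.9 CPM. At pH 6.6 with IL-2 it was 60.8, 24.8, 22.7, 35.6 and 33.6 CPM. The ranges of these groups did not overlap, and the level fell from pH 7.4 to pH 7 to pH 6.6 in 5 of 5 replicates. The log2 fold change was -3.13 ± 0.16 (SE, adjusted p = 1.01e-17) at pH 6.6 and -0.70 ± 0.15 (adjusted p = 0.00106, and 0.0533 without the replicate block) at pH 7, both against the same 5 libraries at pH 7.4.

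Without IL-2, Slc7a5 was low at every pH. It was 26.7, 15.8, 14.4, 15.1 and 19.6 CPM at pH 7.4, and 41.1, 18, 13.6, 19.1 and 16 CPM at pH 6.6, in groups that overlapped. The log2 fold change of 0.19 ± 0.16 (adjusted p = 0.297) had an approximate 95% interval of -0.12 to 0.49. IL-2 raised the gene at pH 7.4 by 4.06 ± 0.17 on the log2 scale, which is 16.6-fold (adjusted p = 1.77e-20), and at pH 6.6 by 0.73 ± 0.15, which is 1.66-fold (adjusted p = 0.000629), with all 5 pairs in that direction each time. The difference between those responses, tested as an interaction, was -3.32 ± 0.22 (adjusted p = 1.61e-14). In 4 of these 6 groups replicate 1 and replicate 3 were at opposite ends of the range, and replicate 1 was the highest library in both groups at pH 6.6.

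Slc3a2, the heavy chain, did not follow its light chain. At pH 7.4 with IL-2 its level was 189, 182, 174, 215 and 244 CPM, and at pH 6.6 with IL-2 it was 191, 239, 215, 187 and 201 CPM. The groups overlapped and 3 of 5 pairs were higher at pH 6.6, with a log2 fold change of 0.05 ± 0.09 (adjusted p = 0.603, approximate 95% interval -0.127 to 0.235), and the sign turned without replicate 3 (-0.014). At pH 7 with IL-2 it was lower, at 168, 143, 132, 152 and 167 CPM, with a log2 fold change of -0.40 ± 0.09 against pH 7.4 (adjusted p = 0.00272) and 0.45 ± 0.09 for pH 6.6 against pH 7 (adjusted p = 6.3e-05). With IL-2 the lowest of the 3 pH values for the heavy chain was thus the middle one in each of these tests, and no replicate moved in 1 direction through all 3.

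In the cells without IL-2 the heavy chain went up with acid. Its level was 96.8, 87.5, 75.2, 78.8 and 93.9 CPM at pH 7.4 and 271, 269.5, 278, 263 and 264 CPM at pH 6.6. Every library at pH 6.6 was above every library at pH 7.4, and the level climbed from pH 7.4 to pH 7 to pH 6.6 in 5 of 5 replicates. The log2 fold change was 1.65 ± 0.09 (adjusted p = 9.44e-16), or 3.14-fold, and the level reached was within the range of the libraries at 0 h, which were 291, 221, 189, 233 and 320.0 CPM. IL-2 raised Slc3a2 at pH 7.4 (log2 fold change 1.22 ± 0.09, adjusted p = 1.41e-13), whereas at pH 6.6 cells with IL-2 had less of it than cells without (log2 fold change -0.38 ± 0.09, adjusted p = 0.00259). The interaction was -1.59 ± 0.13 (adjusted p = 2.16e-12).

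The ratio of Slc7a5 reads to Slc3a2 reads in a library, which needs no scaling between libraries, gives the pair in 1 number. It was 1.48 ± 0.17 (SD, n = 5) at pH 7.4 with IL-2, 1.21 ± 0.093 at pH 7 and 0.177 ± 0.088 at pH 6.6. Without IL-2 it was 0.210 ± 0.038 at pH 7.4, 0.203 ± 0.059 at pH 7 and 0.0802 ± 0.041 at pH 6.6, and at 0 h it was 1.37 ± 0.34. On the log2 scale the difference of pH 6.6 from pH 7.4 was -3.19 ± 0.72 (SD of 5 pairs) with IL-2 and -1.49 ± 0.42 without. Pairs moved the same way in 5 of 5 replicates in all 5 comparisons made, which also included pH 7 against pH 7.4 with IL-2 (-0.29 ± 0.10) and the effect of IL-2 at pH 7.4 (2.83 ± 0.28) and at pH 6.6 (1.13 ± 0.33). Flipping the signs of the pairs (exact permutation test, two-sided) returned p = 0.062 for each of the 5, which is the smallest value that 5 pairs can give and cannot pass 0.05.

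**Figure D2:**
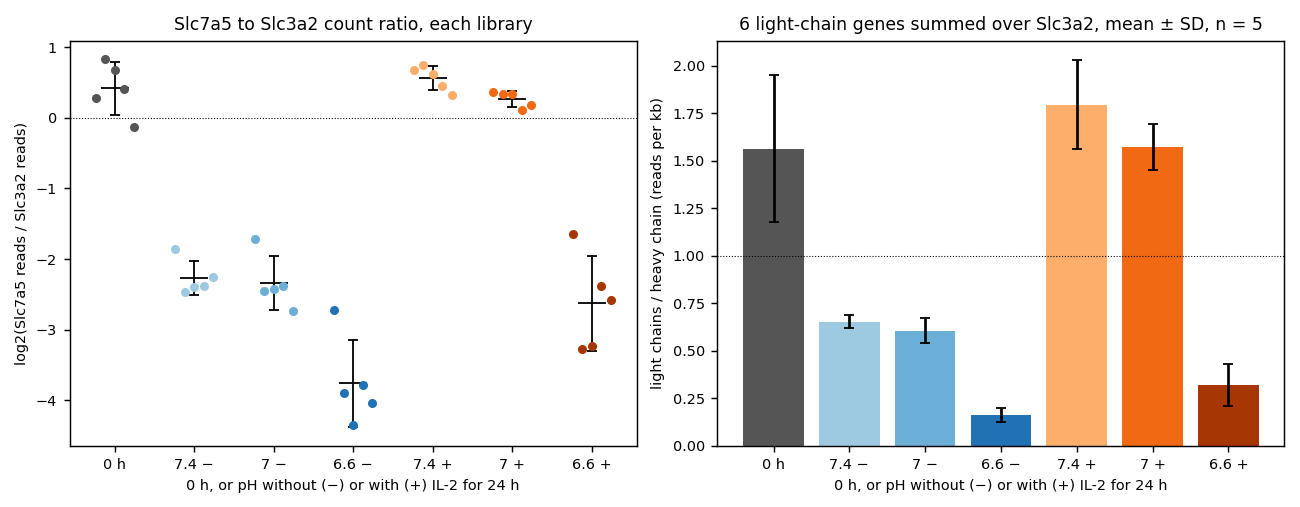
Left, log2 of the ratio of Slc7a5 to Slc3a2 reads in each library, with the mean ± SD of 5 (dotted line: equal reads); right, the summed level per kilobase of 6 light-chain genes over that of Slc3a2, mean ± SD (dotted line: equal levels per kilobase). The groups at pH 6.6 were lowest on both panels within their IL-2 condition, at 0.318 on the right with IL-2 and 0.160 without.

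Other light chains can pair with Slc3a2, so the light chains Slc7a5, Slc7a6, Slc7a7, Slc7a8, Slc7a10 and Slc7a11 were summed as reads per kilobase of exon and divided by the same level of Slc3a2. With IL-2 the sum was 1.79 ± 0.23 times the heavy chain (SD, n = 5) at pH 7.4 and 0.318 ± 0.11 times at pH 6.6. Without IL-2 it was 0.652 ± 0.036 at pH 7.4 and 0.160 ± 0.037 at pH 6.6, so more heavy-chain RNA than light-chain RNA was counted per kilobase in the groups without IL-2 and in both groups at pH 6.6. With IL-2, Slc7a5 made up 78.8% ± 1.7 of the light-chain sum at pH 7.4 and 51.1% ± 6.9 at pH 6.6, and Slc7a6 made up 21.04% ± 1.8 and 48.5% ± 7.0. Without IL-2 the mean share of Slc7a5 was 30.6% ± 5.1 at pH 7.4 and higher, 45.6% ± 11, at pH 6.6, and that of Slc7a6 was 68.4% ± 5.1 and 53.8% ± 11. These shares were not tested. Exon lengths are the union of all annotated transcripts, and which transcript is used was not measured.

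Slc7a6, the other light chain in this list, was lower at pH 6.6 in both IL-2 conditions. With IL-2 it was 97.1, 105, 101, 93.8 and 86.6 CPM at pH 7.4 and 44.3, 34.9, 34.1, 40.7 and 41.6 CPM at pH 6.6, with a log2 fold change of -1.31 ± 0.07 (adjusted p = 5.36e-17). Without IL-2 it was 51.8, 50.6, 46.7, 50.4 and 48.5 CPM at pH 7.4 and 27.3, 30.4, 29.2, 27.5 and 29.9 CPM at pH 6.6, with a log2 fold change of -0.78 ± 0.07 (adjusted p = 5.26e-11). No libraries overlapped in either comparison. The replicate spread of this gene was small, with SDs of 1.40 to 6.96 CPM over the 7 groups. Cells at pH 6.6 with IL-2 had less Slc7a6 than cells at pH 7.4 without IL-2 (log2 fold change -0.34 ± 0.07, adjusted p = 0.000118), and it was the only member for which that was so.

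Slc1a4 and Slc1a5 carry small neutral amino acids, and they differed in level and in size of change. Per kilobase, Slc1a5 was at 98.3 ± 11 CPM (SD, n = 5) at pH 7.4 with IL-2, the highest of the members there, and Slc1a4 at 2.59 ± 0.96 CPM, the lowest. Slc1a4 was 6.21, 9.79, 6.98, 12.9 and 14.99 CPM at pH 7.4 with IL-2, 5.68, 5.14, 4.79, 6.02 and 6.77 CPM at pH 7 and 2.14, 0.840, 0.336, 1.32 and 0.958 CPM at pH 6.6. Each replicate fell at each step. At pH 6.6 these levels rest on 8 to 37 reads a library. Against pH 7.4, the log2 fold change at pH 6.6 was -3.28 ± 0.30 (adjusted p = 1.21e-11).

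Without IL-2, Slc1a4 was as low at each pH, between 0.447 and 2.95 CPM over the 15 libraries, which is 10 to 70 reads, and the change with pH 6.6 was 0.37 ± 0.36 on the log2 scale (adjusted p = 0.371, approximate 95% interval -0.34 to 1.07). IL-2 raised it 11.7-fold at pH 7.4 (log2 fold change 3.55 ± 0.30, adjusted p = 1.9e-12), but at pH 6.6 the groups with and without IL-2 overlapped and the log2 fold change was -0.10 ± 0.36 (adjusted p = 0.862, turning to 0.22 without replicate 1 and to 0.02 with only the groups compared). Replicate 1 was the highest library in each of the 3 groups without IL-2, and again with IL-2 at pH 6.6. Slc1a4 was also the member furthest below its level at the start: at 0 h it was 27.3, 26.8, 21.9, 29.4 and 26.9 CPM, and even after a day at pH 7.4 with IL-2 it was lower (log2 fold change -1.39 ± 0.23, adjusted p = 5.73e-06).

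Slc1a5, the glutamine exchanger, changed by less but in both IL-2 conditions. It was 362, 395, 375, 456 and 464 CPM at pH 7.4 with IL-2 and 212, 177, 171, 259.9 and 240.2 CPM at pH 6.6 with IL-2. Without IL-2 it was 176, 190.4, 186, 179.5 and 212 CPM at pH 7.4 and 128, 117, 123, 156 and 138 CPM at pH 6.6. The groups were apart in both cases, with log2 fold changes of -0.96 ± 0.09 (adjusted p = 4.84e-11) and -0.52 ± 0.09 (adjusted p = 1.24e-05). IL-2 still raised it at pH 6.6 (log2 fold change 0.675 ± 0.09, adjusted p = 1.46e-06), beside 1.12 ± 0.09 at pH 7.4. Its level at pH 6.6 with IL-2 overlapped that at pH 7.4 without IL-2.

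Slc7a1, which takes up arginine and lysine, resembled Slc7a5. Its level at pH 7.4 with IL-2 was 203, 229, 194, 197 and 168 CPM, and at pH 6.6 with IL-2 it was 56.7, 30.4, 27.3, 41.4 and 44.1 CPM. Each replicate fell from pH 7.4 to pH 7 and again to pH 6.6. The step to pH 7 did not pass on its own (log2 fold change -0.36 ± 0.16, adjusted p = 0.12, and 0.00138 with only the groups compared). The step to pH 6.6 from pH 7.4 was -2.33 ± 0.17 (adjusted p = 1.13e-13). Without IL-2 its libraries stood between 16.3 and 33.1 CPM over the 3 pH values, with 0.05 ± 0.17 for pH 6.6 against pH 7.4 (adjusted p = 0.801, turning to -0.10 under total count scaling and to -0.10 without replicate 1). IL-2 raised it 8.84-fold at pH 7.4 (log2 fold change 3.14 ± 0.18, adjusted p = 9.96e-17) and 1.70-fold at pH 6.6 (0.77 ± 0.17, adjusted p = 0.00102).

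The sodium-coupled carriers Slc38a1 and Slc38a2 behaved unlike each other. Slc38a2 was higher in acid in both IL-2 conditions. With IL-2 it was 323, 326, 320.4, 294 and 283 CPM at pH 7.4 and 464, 507, 515, 416 and 416 CPM at pH 6.6, a log2 fold change of 0.58 ± 0.08 (adjusted p = 9.19e-08). Without IL-2 it was 288, 234, 248, 241 and 217 CPM at pH 7.4 and 457, 498, 473, 384 and 456 CPM at pH 6.6, a log2 fold change of 0.89 ± 0.08 (adjusted p = 3.56e-11). All libraries at pH 6.6 were above all those at pH 7.4 and pH 7 with the same IL-2 condition. At pH 6.6 the groups with and without IL-2 overlapped each other and the libraries at 0 h, which were 421 to 524 CPM.

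The group means of Slc38a1 lay between 188 and 319 CPM. With IL-2 it was 342, 355, 332, 306 and 258 CPM at pH 7.4 and 240.1, 236, 239, 195 and 215 CPM at pH 6.6 (log2 fold change -0.50 ± 0.10, adjusted p = 4.35e-05). Without IL-2 the values were 0.20 ± 0.10 on the log2 scale for the same step, with overlapping groups (adjusted p = 0.0737, and 0.034 under RLE scaling, 0.0319 in DESeq2, 0.0457 with only the groups compared and 0.0353 without replicate 4). It was the member whose level at pH 7.4 without IL-2 was closest to that at 0 h, with a log2 fold change of 0.00 ± 0.10 (0.0024, adjusted p = 0.984), and the sign of so small a value turned without replicates 1 and 5 and without the block.

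**Figure D3:**
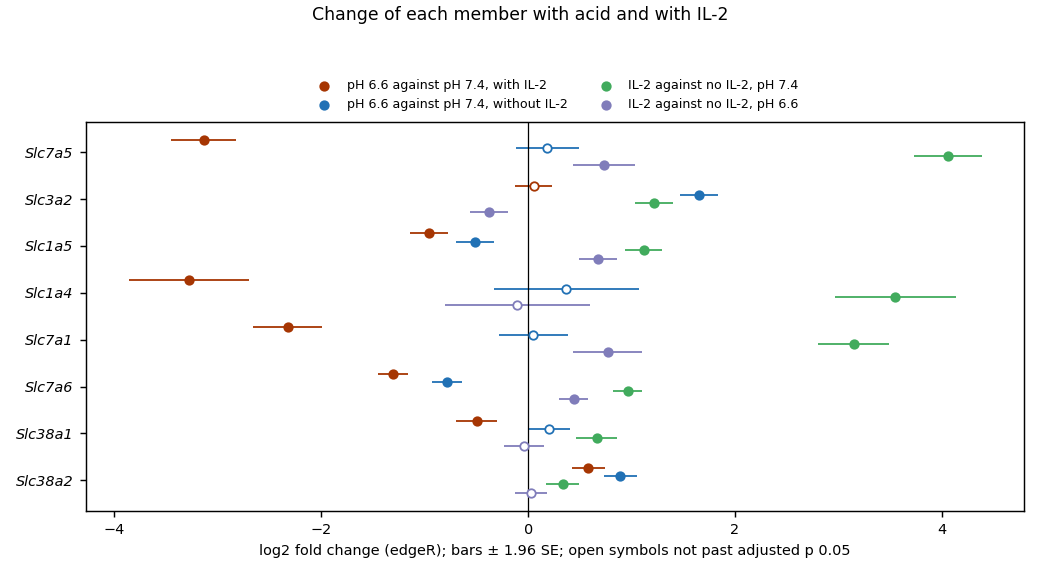
log2 fold change (x axis, edgeR) of each member (y axis) for pH 6.6 against pH 7.4 with IL-2 and without, and for IL-2 against no IL-2 at pH 7.4 and at pH 6.6; bars are approximate 95% intervals and open symbols did not pass the adjusted p threshold of 0.05. Slc7a5, Slc1a4 and Slc7a1 had values of -3.13, -3.28 and -2.33 for acid with IL-2 and 0.19, 0.37 and 0.05 without.

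IL-2 raised all 8 members at pH 7.4, where 39.3% of all genes tested were higher with IL-2, and all 8 at pH 7, where 37.6% were. The median log2 fold change of the members was 1.17 at pH 7.4 and 0.95 at pH 7, beside -0.04 over all genes at both. Groups with and without IL-2 did not overlap for 7 members at either pH, nor for 65.8% of all genes at pH 7.4 and 64.5% at pH 7. Slc38a2 was the exception (0.33 ± 0.08 at pH 7.4, adjusted p = 0.000372, and 0.41 ± 0.08 at pH 7, adjusted p = 2.88e-05). At pH 6.6 the counts were 4 higher (Slc7a1, Slc7a5, Slc1a5 and Slc7a6, beside 13.2% of all genes) and 1 lower (Slc3a2, beside 10.6%). Over the members the median there was 0.23, and over all genes -0.04.

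The interaction, which asks whether pH 6.6 changed a gene differently with IL-2 than without, was negative for all 8 members, and 32.8% of all genes tested passed in that direction. It was -3.65 ± 0.47 for Slc1a4 (adjusted p = 4.29e-08), -2.38 ± 0.24 for Slc7a1 (3.03e-10), -0.70 ± 0.14 for Slc38a1 (6.31e-05), -0.52 ± 0.10 for Slc7a6 (3.7e-05), -0.44 ± 0.13 for Slc1a5 (0.00374) and -0.31 ± 0.11 for Slc38a2 (0.0191), all edgeR adjusted p, and the values of Slc7a5 and Slc3a2 are given above. Each was of that sign in 5 of 5 replicates. For Slc3a2 and Slc38a2 the difference was a smaller rise, or none, with IL-2, and for Slc1a5 and Slc7a6 a larger fall. Under total count scaling, which moved the median of all genes from 0.04 to 0.27 in this contrast, Slc1a5 (-0.21, adjusted p = 0.194) and Slc38a2 (-0.08, adjusted p = 0.528) did not pass, and Slc38a2 also did not without replicate 1 (-0.25, adjusted p = 0.0534), 2 (-0.17, 0.262) or 5 (-0.26, 0.0915).

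The milder step to pH 7 was compared next. With IL-2, 4 of 8 members were lower than at pH 7.4, where 9.83% of all genes tested were, namely Slc1a4 (-0.84 ± 0.24, adjusted p = 0.0135), Slc7a5, Slc3a2 and Slc7a6 (-0.22 ± 0.07, adjusted p = 0.0255), and none was higher. Of these, 2 were called without the block, under a looser filter, without replicate 2 and without replicate 4. Slc1a4 did not pass in any of these or without replicate 5 (adjusted p from 0.0502 to 0.0903). Slc7a6 did not pass under total count scaling, under the looser filter or without replicate 2, 3 or 4 (adjusted p from 0.0875 to 0.143). Slc7a5 did not pass without the block (adjusted p = 0.0533). With only the groups compared, Slc7a1 (-0.33, adjusted p = 0.00138) and Slc38a1 (-0.23, adjusted p = 0.0137) newly passed as lower, and Slc38a1 also did without replicate 5 (adjusted p = 0.0277). Without IL-2, 0 of 8 members passed in edgeR at pH 7, where 1.68% of all genes did, and their log2 fold changes lay between -0.15 and 0.10. The interaction for pH 7 was called for Slc7a5 (-0.73 ± 0.21, adjusted p = 0.0426) and Slc3a2 (-0.50 ± 0.13, adjusted p = 0.0236), 2 of 8 where 2.6% of all genes were lower, but for neither of them when replicate 2, 3, 4 or 5 was left out.

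From pH 7 to pH 6.6 with IL-2, 6 of 8 members were lower, beside 40% of all genes tested, and 2 were higher, Slc3a2 and Slc38a2 (0.55 ± 0.08, adjusted p = 3.35e-07), beside 32.5%. Groups of all 8 were apart, as were those of 55.7% of all genes. Most of the fall over the whole pH range lay in this step: it was -2.44 ± 0.16 for Slc7a5, -2.44 ± 0.30 for Slc1a4, -1.97 ± 0.17 for Slc7a1, -1.08 ± 0.07 for Slc7a6 and -0.85 ± 0.09 for Slc1a5. Slc38a1 changed by -0.24 ± 0.10 (adjusted p = 0.0318), a call that was lost under 8 alternatives, among them RLE scaling and leaving out replicate 1, 2 or 4, with adjusted p from 0.0582 to 0.21.

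Set against the cells at 0 h, a day of culture at pH 7.4 with IL-2 left 2 members higher (Slc38a1, 0.66 ± 0.10, adjusted p = 1.08e-06, and Slc7a6, 0.28 ± 0.07, adjusted p = 0.0012), where 29% of all genes were higher, and 4 lower, where 30.9% were. The 4 were Slc1a4, Slc38a2 (-0.57 ± 0.08, adjusted p = 3.43e-07), Slc3a2 (-0.31 ± 0.09, adjusted p = 0.00449) and Slc1a5 (-0.31 ± 0.09, adjusted p = 0.00485, and 0.0694 without replicate 1). Without IL-2 at pH 7.4, 7 of 8 were lower than at 0 h, beside 38.3% of all genes, from -0.69 ± 0.07 for Slc7a6 to -4.94 ± 0.30 for Slc1a4, with Slc7a5 at -4.22 ± 0.17. Slc38a1 was the exception.

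At pH 6.6 with IL-2, 6 of 8 members were lower than at 0 h, beside 38% of all genes tested, and at pH 6.6 without IL-2, 5 of 8 were, beside 40.3%. Slc7a5 was lower than at the start with IL-2 (log2 fold change -3.30 ± 0.16) and without (-4.03 ± 0.17). Slc38a2 was within 0.02 of its level at 0 h in both groups (0.01 ± 0.08 and -0.02 ± 0.08, adjusted p = 0.89 and 0.872), and these signs turned in 1 and in 5 of the alternatives. Slc3a2 was -0.26 ± 0.09 with IL-2 (adjusted p = 0.0147, lower in 3 of 5 pairs), a call that was lost without replicates 1, 4 or 5 (0.0534 to 0.327), under RLE scaling (0.0718), in DESeq2 (0.0713) and with only the groups compared (0.231), and 0.12 ± 0.09 without IL-2 (adjusted p = 0.226, and 0.0292 without replicate 5). Slc38a1 was 0.17 ± 0.10 with IL-2 (adjusted p = 0.142, and 0.0175 without replicate 2, 0.0428 under RLE scaling and 0.0408 in DESeq2). Without IL-2 it was 0.21 ± 0.10 (adjusted p = 0.0643, and 0.0141 to 0.0465 without replicates 2, 3 or 4). It also passed there under RLE scaling (adjusted p = 0.0216), in DESeq2 (0.0192) and with the stricter filter (0.0419).

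Cells at pH 6.6 with IL-2 were also compared with cells at pH 7.4 that had no IL-2. Here 4 of 8 members were higher, Slc3a2 (1.27 ± 0.09, adjusted p = 3.01e-13), Slc7a5 (0.92 ± 0.16, adjusted p = 5.84e-06), Slc38a2 (0.92 ± 0.08, adjusted p = 1.8e-11) and Slc7a1 (0.82 ± 0.17, adjusted p = 9.95e-05), where 30.4% of all genes tested were. Slc7a6 was lower, where 34.1% were. Slc1a4 (0.27 ± 0.37, adjusted p = 0.54), Slc38a1 (0.16 ± 0.10, adjusted p = 0.153) and Slc1a5 (0.16 ± 0.09, adjusted p = 0.132, and 0.0426 under RLE scaling) did not pass.

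By mean CPM the order of the groups differed between members. For Slc7a5 it ran from 0 h (331 ± 42) to pH 7.4 with IL-2 (294 ± 16), pH 7 with IL-2 (183 ± 21), pH 6.6 with IL-2 (35.5 ± 15) and the groups without IL-2 (21.6 ± 11 at pH 6.6, 18.9 ± 6.5 at pH 7, 18.3 ± 5.1 at pH 7.4). The first of these neighbours overlapped, the groups with IL-2 were apart from each other, and the last 4 groups overlapped in turn. For Slc3a2 the order was pH 6.6 without IL-2 (269 ± 6.1), 0 h (251 ± 54), pH 6.6 with IL-2 (207 ± 21), pH 7.4 with IL-2 (201 ± 29), pH 7 with IL-2 (152 ± 15.5) and then pH 7 and pH 7.4 without IL-2 (92.9 ± 11 and 86.4 ± 9.3). The first 4 overlapped in turn, and the last pair overlapped each other. Together the 8 members took 0.201% ± 0.018 of the reads on genes at 0 h, 0.174% ± 0.0045 at pH 7.4 with IL-2, 0.122% ± 0.0054 at pH 6.6 with IL-2, 0.0861% ± 0.0049 at pH 7.4 without IL-2 and 0.111% ± 0.0063 at pH 6.6 without IL-2.

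The genes most like each member were sought among 8993 other genes whose mean log2 CPM reached 3, by Pearson's r of log2 CPM over the 35 libraries. These r values describe libraries that share groups and replicate numbers, and group differences dominate them. For Slc7a5 they were Aars (r = 0.986) and Iars (0.977), both aminoacyl-tRNA synthetases, and Mthfd2 (0.976), a mitochondrial folate enzyme. For Slc1a4 they were Aars (0.978), Asns (0.976), the asparagine synthetase, and Yars (0.966), another tRNA synthetase. Slc7a1 was closest to Tsr1 (0.9855), Ipo4 (0.985) and Ergic1 (0.984), Slc7a6 to Ftsj3 (0.987), Mrps2 (0.987) and Heatr3 (0.986), and Slc1a5 to Galk1 (0.987), Rps6ka1 (0.9805) and Epop (0.975). The other members had less close neighbours: Atp6v0e (0.959), Rabggtb (0.950) and Rpl3 (0.946) for Slc3a2, Tnpo1 (0.959), Atp13a3 (0.9485) and Xpo4 (0.937) for Slc38a1, and Snx18 (0.938), Ppm1b (0.925) and Pim1 (0.910) for Slc38a2. Among the members themselves r was 0.985 for Slc7a5 with Slc7a1, 0.436 for Slc7a5 with Slc3a2, 0.843 for Slc3a2 with Slc38a2 and -0.216 for Slc7a6 with Slc38a2.

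Other carriers and enzymes were counted from lists written for this purpose. Their counts stand beside the shares of all genes tested, which at pH 6.6 against pH 7.4 were 40.9% lower and 35.4% higher with IL-2, and 35.4% lower and 31.6% higher without. Of 32 other carriers for amino acids at the cell surface, 12 passed the filter on low counts, and at pH 6.6 against pH 7.4 with IL-2, 7 of them were lower and 3 higher (median log2 fold change -0.68). The named examples were Slc43a2 (LAT4), a carrier of leucine and its relatives that needs no heavy chain and that rose by 1.15 ± 0.10 on the log2 scale (adjusted p = 5.08e-12), Slc16a10 (TAT1), which carries aromatic amino acids (-0.88 ± 0.13, adjusted p = 1.55e-07), and the taurine carrier Slc6a6 (-0.48 ± 0.12, adjusted p = 0.000556). Slc43a2 was at 28.8 ± 2.2 CPM at pH 7.4 with IL-2 and 64.2 ± 8.8 CPM at pH 6.6 with IL-2. Its levels without IL-2 were 66.9 ± 11 CPM at pH 7.4 and 79.7 ± 5.5 CPM at pH 6.6. Without IL-2, 5 of the 12 were lower and 3 higher at pH 6.6 (median -0.36), close to those shares, and Slc16a10 rose there, by 2.22 ± 0.14 (adjusted p = 7.77e-15).

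Carriers of the lysosome and inner membranes were counted next. With IL-2, 5 of 10 tested were higher at pH 6.6 and 4 lower (median 0.15), and without IL-2, 2 were higher and 7 lower (median -0.58). Slc38a9, the arginine sensor of mTORC1 on the lysosome, was 21 ± 2.6 CPM at pH 7.4 and 52.3 ± 7.7 CPM at pH 6.6 with IL-2 (log2 fold change 1.32 ± 0.08, adjusted p = 1.93e-16), and without IL-2 it was 93.9 ± 14 and 65.1 ± 11 CPM (-0.53 ± 0.07, adjusted p = 1.74e-07). Slc38a6 (0.87 ± 0.11 with IL-2 and -0.64 ± 0.10 without) and Slc36a1, which moves amino acids together with protons (0.51 ± 0.10 and -0.92 ± 0.09), also changed in opposite directions in the 2 conditions, while Slc36a4 was lower with IL-2 (-0.52 ± 0.11) and did not pass without (-0.23 ± 0.11, adjusted p = 0.06). The interaction was positive for 7 of the 10 and negative for 2, beside 34.3% and 32.8% of all genes.

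Carriers for other nutrients and the enzymes that use amino acids came last. Of 14 other nutrient carriers tested, 8 were lower and 3 higher at pH 6.6 with IL-2 (median -1.09), and 6 were lower and 4 higher without (median -0.06). The examples were the lactate carriers Slc16a3 (-3.35 ± 0.38) and Slc16a1 (-2.73 ± 0.12), the transferrin receptor Tfrc (-3.17 ± 0.14) and the folate carrier Slc19a1 (-2.43 ± 0.16). Of 14 enzymes of amino acid metabolism tested, 11 were lower and 1, the glutamine synthetase Glul (0.52 ± 0.10, adjusted p = 2.6e-05), was higher with IL-2 (median -1.51), and without IL-2 2 were lower and 5 higher (median 0.09). Bcat1, which starts the breakdown of leucine, changed by -3.91 ± 0.15, from 44.0 ± 7.1 to 2.97 ± 0.96 CPM, and Shmt2, Asns and Psat1, of serine, asparagine and one-carbon metabolism, by -2.69 ± 0.12, -2.40 ± 0.13 and -2.38 ± 0.08.

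**Figure D4:**
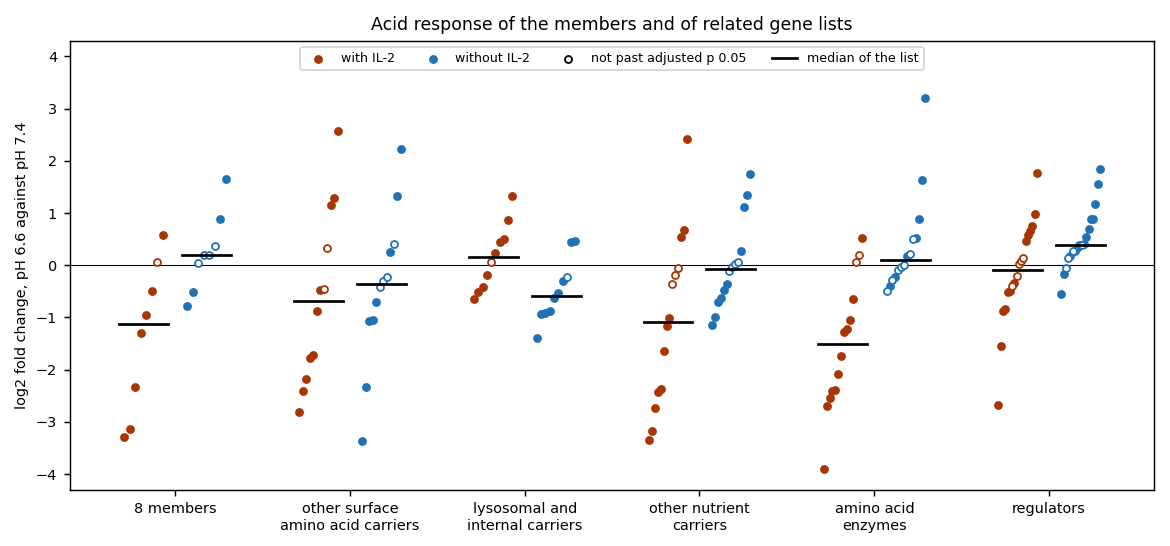
log2 fold change (y axis) at pH 6.6 against pH 7.4 for each gene of 6 lists (x axis), with IL-2 and without; open symbols did not pass the adjusted p threshold of 0.05, and black lines are medians. The medians of the members were -1.13 with IL-2 and 0.20 without, and those of the amino acid enzymes -1.51 and 0.09.

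Of 18 regulators linked to these carriers, 7 were lower and 6 higher at pH 6.6 with IL-2 (median -0.09). These counts are near the shares of all genes tested, 40.9% lower and 35.4% higher. Without IL-2, 2 were lower and 12 higher (median 0.39), beside 35.4% and 31.6% of all genes. Mycn (-2.68 ± 0.11, adjusted p = 1.88e-20) and Myc (-1.55 ± 0.11, adjusted p = 6.35e-14), which code for N-Myc and c-Myc, were lower with IL-2 and higher without (1.84 ± 0.13, adjusted p = 6.93e-14, and 0.69 ± 0.12, adjusted p = 6.38e-06). Myc was 160.1 ± 14 CPM at pH 7.4 with IL-2, 54.8 ± 10 CPM at pH 6.6 with IL-2, 16.2 ± 3.4 CPM at pH 7.4 without IL-2 and 26.1 ± 4.6 CPM at pH 6.6 without. With IL-2, the step to pH 6.6 raised the stress factor Ddit3 (CHOP) by 1.77 ± 0.16 (adjusted p = 7.29e-12). It also raised Mlxip, a glucose-sensing relative of Myc (0.98 ± 0.10, adjusted p = 3.99e-10). Without IL-2 neither gene passed (0.26 ± 0.15, adjusted p = 0.11, for Ddit3 and 0.15 ± 0.10, adjusted p = 0.213, for Mlxip). IL-2 itself lowered both at pH 7.4 (-1.98 ± 0.16 and -0.996 ± 0.105). In Ddit3 and Mlxip, cells at pH 6.6 with IL-2 did not differ past the threshold from pH 7.4 cells lacking IL-2 (-0.21 ± 0.15, adjusted p = 0.226, and -0.01 ± 0.10, adjusted p = 0.93). Atf4 is also controlled at translation. For its RNA, the step to pH 6.6 gave 0.08 ± 0.07 with IL-2 (adjusted p = 0.338). Without IL-2 that step gave 0.89 ± 0.08 (adjusted p = 6.03e-12).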

How the data were processed

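The files hold read counts per gene, 1 file a library, which the authors made and deposited without normalization. The submitters' processing notes name cutadapt 1.8, STAR 2.5.2b, HTSeq 0.6.1 and GRCm38. The libraries were stranded poly(A) RNA libraries read from 1 end, and the annotation and strand setting used for counting are not given in the sources used here. Library sizes and tests used only rows that name a gene. The other rows held, as medians of all counts in a file, 37.1% for reads with several alignments, 7.42% for reads on no gene (medians of 4.33% at pH 7.4, 5.13% at pH 7 and 7.86% at pH 6.6 with IL-2, 9.43%, 8.72% and 7.68% without, and 4.89% at 0 h) and 0.922% for ambiguous reads.

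Counts were tested in edgeR 4.0.16 (R 4.3.3) with the quasi-likelihood test (robust), TMM scaling, filterByExpr with a minimum count of 10, and 1 model over 35 libraries with group and replicate number as terms. Benjamini-Hochberg adjustment covered the 13819 genes tested, with a threshold of 0.05. The SE is the size of the log2 fold change divided by the root of its F statistic. The replicate number pairs the libraries, since per the design text each replicate was cultured under all conditions. Deviations of same-numbered libraries correlated above 0.1 in 96 of 105 pairs, with a median of 0.247, against -0.0639 for different numbers. No libraries were identical. The procedure was tested on simulated data.

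The members and lists were chosen with earlier results of these data known. Named genes were all members, in each list up to 4 genes with the largest change at pH 6.6 against pH 7.4 with IL-2 past the threshold (mean log2 CPM 3 or more), and the 3 genes most like each member. Atf4 and Glul were added after their values were seen. Alternatives were RLE and total count scaling, DESeq2 1.42.0, a looser and a stricter filter, only the groups compared, no replicate block, each replicate left out, and a minimum log2 fold change of 1.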

Additional observations from a re-analysis of the deposited data

Results flagged for a closer look

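Among the 56 sets of 5 libraries (8 members in 7 groups), 3 had a library far from the other 4, where chance alone gives about 1 in 20. Slc7a5 at pH 7 without IL-2 was 30.5 CPM in replicate 1, against 15.3 to 16.4 CPM in the others. Slc38a2 in the same library was 299 CPM, against 214 to 229.7 CPM. Slc7a5 at pH 7.4 with IL-2 was 266 CPM in replicate 3, against 295 to 304 CPM.

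The response to pH differed with and without IL-2 by a test of the difference itself (edgeR interaction). For pH 6.6 the log2 differences were -3.32 for Slc7a5, -1.59 for Slc3a2, -0.44 for Slc1a5, -3.65 for Slc1a4, -2.38 for Slc7a1, -0.52 for Slc7a6, -0.70 for Slc38a1 and -0.31 for Slc38a2. For pH 7 they were -0.73 for Slc7a5 and -0.50 for Slc3a2. Of all genes tested, 32.8% passed as lower in the pH 6.6 interaction and 2.6% in that for pH 7. Neither pH 7 value passed without the replicate block, or when replicate 2, 3, 4 or 5 was left out. Under total count scaling the pH 6.6 values of Slc1a5 and Slc38a2 did not pass.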

How the results depend on the processing

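Of 1425 values of single members under alternatives, 1339 kept their direction and side of the threshold, 43 no longer passed, 19 newly passed and 24 changed sign, and 0 of the sign changes was of a value that had passed. Of 83 member results that passed, 73 passed in every alternative that gave a value; the stricter filter removed Slc1a4. For the number of members called and the Slc7a5 to Slc3a2 ratio together, 198 of 225 values were unchanged. A count was unchanged if within 1.5 times, and a ratio if it kept its direction and side of the threshold. The number of members called moved further in 22 values. With a minimum log2 fold change of 1 it was 4 at pH 6.6 against pH 7.4 with IL-2, against pH 7 with IL-2, for IL-2 at pH 7 and in the pH 6.6 interaction, 5 for IL-2 at pH 7.4, 1 at pH 6.6 without IL-2, in pH 7.4 with IL-2 against 0 h and in pH 6.6 with IL-2 against pH 7.4 without, and 0 at pH 7 with IL-2, for IL-2 at pH 6.6 and in the pH 7 interaction. At pH 7 with IL-2 it was 2 with a looser filter and 2 to 4 with a replicate left out. In the pH 7 interaction it was 1 under total count scaling and with a looser filter, and 0 to 2 with a replicate left out. Without the replicate block it was 2 at pH 7 with IL-2 and 0 in the pH 7 interaction, and Slc38a1 at pH 6.6 against pH 7 with IL-2 was also lost (-0.24, adjusted p = 0.0582).

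Unpaired exact permutation tests of the Slc7a5 to Slc3a2 ratio, with no block, gave p = 0.00794 for pH 6.6 with IL-2 (-3.19), pH 6.6 without IL-2 (-1.49) and IL-2 at pH 7.4 (2.83), the smallest p for 5 against 5, and p = 0.0317 for pH 7 with IL-2 (-0.29) and IL-2 at pH 6.6 (1.13); the pairs cannot go below 0.062.

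The sign changes were of values near 0 that had not passed, and their cause was not tested. Under total count scaling Slc7a1 at pH 6.6 without IL-2 was -0.10 and Slc38a1 for IL-2 at pH 6.6 was 0.029. With only the groups compared, IL-2 at pH 6.6 gave 0.023 for Slc1a4 and 0.0024 for Slc38a1. Without the block Slc1a5 in the pH 7 interaction was -0.006 and Slc38a1 at pH 7.4 without IL-2 against 0 h was -0.0078. Slc38a2 at pH 6.6 without IL-2 against 0 h was 0.041 under RLE scaling and in DESeq2, 0.0069 with the stricter filter and 0.034 with only the groups compared. With a replicate left out the ranges were -0.014 to 0.14 for Slc3a2 at pH 6.6 with IL-2, -0.10 to 0.12 for Slc7a1 at pH 6.6 without IL-2, -0.013 to 0.11 for Slc7a5 and -0.23 to 0.0058 for Slc1a4 at pH 7 without IL-2, -0.23 to 0.22 for Slc1a4, -0.066 to 0.017 for Slc38a1 and -1e-04 to 0.074 for Slc38a2 for IL-2 at pH 6.6, -0.047 to 0.054 for Slc1a5 in the pH 7 interaction, and against 0 h -0.11 to 0.17 for Slc38a1 at pH 7.4 without IL-2, -0.014 to 0.11 for Slc38a2 at pH 6.6 with IL-2 and -0.042 to 0.095 without.

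Over all genes, 2623 were called at pH 7 with IL-2 and 1660 without the block (4388 with only the groups compared), 232 and 56 at pH 7 without IL-2 (942), and 662 and 177 in the pH 7 interaction (1632). Total count scaling moved the share of calls that were higher from 48.2% to 65.7% at pH 7 with IL-2, 47.2% to 34.7% at pH 6.6 without IL-2, 55.5% to 74.6% for IL-2 at pH 6.6, 51.1% to 62.8% in the pH 6.6 interaction and 45.8% to 60.8% in the pH 7 interaction. Low reads limit Slc1a4 most, with 8 to 37 reads a library at pH 6.6 with IL-2.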
